A study of Homo sapiens with 4 samples.

Results

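The genes that encode the proteins of the cytosolic ribosome were followed through hematopoietic differentiation of human pluripotent stem cells. They were chosen by symbol: RPL or RPS with a number and an optional letter or paralog suffix, RPLP0 to RPLP2, and RPSA. The Y-linked copies, the kinases named RPS6K and all pseudogenes were left out by the same rule. It found 84 of the 58274 gene identifiers of the deposited table, 52 of the large subunit and 32 of the small subunit. Of these, 7 are paralogs of another member (RPL3L, RPL7L1, RPL10L, RPL22L1, RPL26L1, RPL39L and RPS27L), and the other 77 are called core members here. The rule reads symbols and none of the measured values.

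Total RNA was sequenced from undifferentiated BC1 cells, which are induced pluripotent stem cells of human origin, and from 3 populations derived from them in a stepwise culture. The mesoderm population, taken at day 2, carried APLNR, the apelin receptor, and had received activin A and BMP4. The cells were then kept with VEGF and bFGF, and hemogenic endothelial progenitors (HEPs) were taken as CD31+CD34+ at day 5 and hematopoietic progenitors (HPCs) as CD43+ at day 8. With a single line and 1 library per population, no difference below has a replicate check and no test of one could be made. Summed markers followed the labels: 8 pluripotency genes were highest in BC1, 8 mesoderm genes in APLNR+, 8 endothelial genes in CD31+CD34+ and 9 hematopoietic genes in CD43+, although PTPRC, a leukocyte marker, stayed under 1 FPKM there. Values are FPKM, fragments scaled to transcript length and to the mapped fragments of the library, so that levels can be compared between genes of different length. Depth recovered from the values lay between 19400000 and 23300000 mapped fragments. FPKM are relative to the other RNA of a library, and a lower level cannot be told apart from more RNA of other genes, nor fewer cells of a type from less RNA per cell.

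A ribosome is made of a small subunit, which reads the mRNA, and a large subunit, which joins amino acids, and each contains ribosomal RNA and one copy of nearly every ribosomal protein. The mRNAs of these proteins are among the most abundant of growing cells, and most begin with a C followed by a run of pyrimidines, the terminal oligopyrimidine (TOP) tract, through which TOR signalling controls their translation. Loss of one copy of several of them causes Diamond-Blackfan anaemia, a failure of red cell production, and a few have paralogs that take their place in particular tissues.

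Ribosomal protein genes took a large share of all FPKM in every population. BC1 gave them 21.4%, APLNR+ 18.8%, CD31+CD34+ 18.5% and CD43+ 20.9%. The pluripotent and the hematopoietic library were thus the high ones, and the ratio of the highest to the lowest share was 1.16. Large subunit genes took 12.1%, 10.7%, 10.5% and 11.8% in the same order, and small subunit genes 9.33%, 8.19%, 7.99% and 9.04%. The ratio of the summed large to the summed small subunit FPKM stayed between 1.29 and 1.31. Members held between 30 and 33 of the 50 highest genes of a library.

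**Figure D1:**
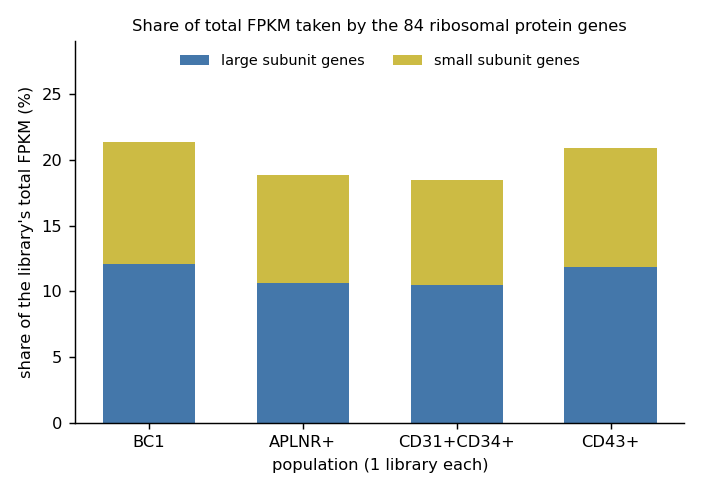
Share of each library's total FPKM (%, y axis) taken by the 52 large subunit genes and the 32 small subunit genes, stacked, in the 4 populations (x axis, 1 library each, no error bars). The bars reach 21.4%, 18.8%, 18.5% and 20.9%, lower in the middle populations.

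The core members were all abundant, and their order hardly differed between populations. The median core level in FPKM was 1543, 1281, 1333 and 1518 in the order BC1, APLNR+, CD31+CD34+ and CD43+. RPS27, a zinc finger protein of the small subunit, was the highest member with 6167, 4839, 4365 and 6252 FPKM. Also among the 5 highest in mean FPKM were RPL31 with 4008, RPS9 with 3273 and RPL35 with 3086. The lowest core member was RPS26, which lies at the mRNA exit of the small subunit, with 464, 397, 333 and 382 FPKM. The 5 lowest of all 84 members were paralogs, from RPL7L1 with a mean of 44.4 FPKM down to RPL10L, which was listed at 0 in every library. Between any 2 libraries, the rank correlation of the 77 core levels lay between 0.951 and 0.978, across genes that share the library and are not independent.

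The core members varied little over the whole course. The highest level divided by the lowest was 1.31 in the median core member, from 1.07 for RPS28 to 1.94 for RPL39. It was under 1.5 for 64 of the 77 (83.1%) and reached 2 for 0 of them. Among the 843 other genes with a mean of at least 100 FPKM, a level chosen after values were seen, it was under 1.5 for 213 (25.3%), with a median of 1.86. The core members were highest in BC1 (37) or CD43+ (38) and lowest in CD31+CD34+ (48) or APLNR+ (25), with 2 or fewer in each other library. In 44 of them the level was lower at each of the first 2 transitions and higher at the last. These counts are not given for other genes, so the pattern cannot be called particular to the members.

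**Figure D2:**
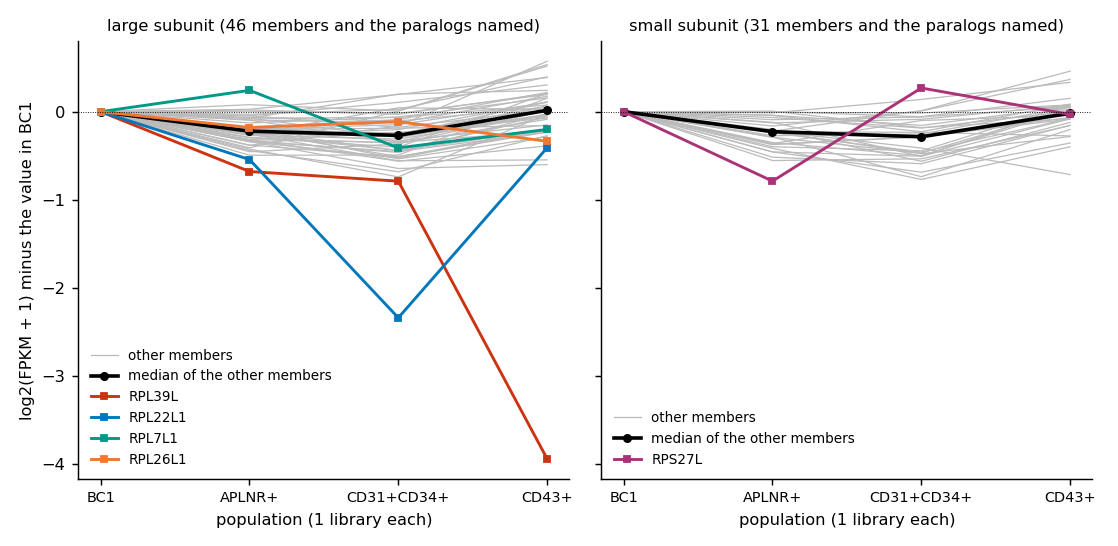
Difference in log2(FPKM + 1) from BC1 (y axis) of each large (left) and small (right) subunit gene in the 4 populations (x axis, 1 library each); grey lines are core members, black their median, colours the paralogs. The core members stay in a narrow band, while RPL39L ends at -3.94 in CD43+ and RPL22L1 dips in CD31+CD34+.

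The starts of the mRNAs, which carry the TOP tract, were read from RefSeq promoters (GRCh38.p14) for the 67 members with an entry. The motif was a C at the annotated start followed by at least 4 letters that are C or T, on the transcribed strand. At 1 start or more, 47 of the 67 (70.2%) had it, beside 988 of all 15843 coding genes (6.24%). Of the 5 paralogs with an entry only RPL22L1 had it, and RPL39L and RPL3L had no entry. The windows below, each with 10 bases before the start and 20 from it on and the tract in capitals, show members that the results turn on. The first 8 are core members, all with the tract, and the last 4 are paralogs. Of the 62 core members with an entry, 16 lack it at every listed start, RPS26, RPS28 and RPS29 among them.
RPL39, chrX:119791611-119791640, minus strand: ccgccagcttCCCTCCTCTTCCTTTCTCCg
RPL36A, chrX:101391001-101391030, plus strand: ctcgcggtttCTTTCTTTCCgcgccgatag
RPL29, chr3:51995876-51995905, minus strand: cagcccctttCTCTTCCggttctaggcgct
RPL22, chr1:6199576-6199605, minus strand: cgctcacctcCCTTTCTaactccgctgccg
RPSA, chr3:39406710-39406739, plus strand: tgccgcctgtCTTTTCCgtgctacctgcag
RPS6, chr9:19380217-19380246, minus strand: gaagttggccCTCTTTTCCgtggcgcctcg
RPS24, chr10:78033853-78033882, plus strand: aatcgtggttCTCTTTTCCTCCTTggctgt
RPS27, chr1:153990752-153990781, plus strand: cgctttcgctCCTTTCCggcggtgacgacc
RPL22L1, chr3:170870176-170870205, minus strand: ccgtagcttcCTCTCTgctctcgcggccga
RPS27L, chr15:63157458-63157487, minus strand: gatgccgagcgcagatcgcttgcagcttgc
RPL7L1, chr6:42879606-42879635, plus strand: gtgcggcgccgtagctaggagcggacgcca
RPL10L, chr14:46651762-46651791, minus strand: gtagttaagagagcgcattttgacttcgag

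The tract was 19 bases long in RPL39, the longest among the members. RPS27 had it and its paralog RPS27L did not, whereas both RPL22 and RPL22L1 did. Allowing it to begin within 5 bases of the start, 54 of the 67 members (80.6%) had it, beside 28.0% of coding genes. Of other letters, CTTTC on the transcribed strand within 20 bases of the start, which can overlap the tract, was found in 34 members (50.7%, beside 7.23%). On either strand of the 300 bases searched, CCGGAA, the core of ETS factor sites, was found in 39 (58.2%, beside 26.6%), and TATAAA in 7 (10.4%, beside 12.4%). These are matches of letters, not measured sites. Core members with the tract (46) and without it (16) had medians of -0.25 and -0.22 for the change from BC1 to APLNR+, -0.05 and -0.09 for the next and 0.29 and 0.29 for the last.

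From BC1 to APLNR+ nearly all members were slightly lower. The change is given as the difference in log2(FPKM + 1), later minus earlier population, for the 82 members with at least 1 FPKM in at least 1 library, and only RPL3L and RPL10L were under that level. Its median was -0.23 over the members and 0.00 over all 17137 genes tested, and 75 of the 82 were lower in APLNR+. Large and small subunit members had medians of -0.22 and -0.23. The interquartile range was 0.25, against 0.81 over all genes. By at least 0.5, 5 members were lower and 0 were higher, while 21.1% and 21.0% of all genes tested were past it in these directions. Past 1 there were 0 lower and 0 higher, beside 9.32% and 9.15%.

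Of those 5, 3 were the paralogs RPS27L, RPL39L and RPL22L1, described below. The core members were RPS3A, with 1079 FPKM in BC1 and 735 in APLNR+ (-0.55), and RPS24, with 2051 and 1434 (-0.52). Both are small subunit proteins, and RPS24 is mutated in some families with Diamond-Blackfan anaemia. At the other end, RPL7L1 was higher by 0.24. Next came RPL29, a basic large subunit protein, at 1496 and 1581 FPKM, RPL10, which joins the large subunit late in its assembly, at 1812 and 1846, and RPLP2, a protein of the stalk that recruits translation factors, at 604 and 612.

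At this first transition the change of a core member went with the base composition of its coding sequence. GC content of the 77 coding sequences ranged from 41.7% in RPL39 to 62.6% in RPS15. Its rank correlation with the change was 0.59 from BC1 to APLNR+, 0.06 from APLNR+ to CD31+CD34+ and -0.10 from CD31+CD34+ to CD43+, over genes that share the libraries. In the 39 members of lower GC the first change had a median of -0.32, and in the 38 of higher GC -0.13. For the 816 other coding genes with a mean of at least 100 FPKM the first correlation was 0.34, and for all 13779 other coding genes 0.17. From BC1 to CD43+ the correlation was 0.41 in the core members, 0.19 in the 816 genes and -0.0007 in the 13779. Core members of lower GC then had a median change of -0.08 and those of higher GC 0.07. The part that GC content played in the change was not tested. Length of the coding sequence also went with the change of the core members. Its rank correlation was 0.31 at the first transition, -0.03 at the second and -0.25 at the last. With the median of coding genes of like GC subtracted, the median of the members was -0.22, beside -0.23 without it. RPS27L was then at -0.68 and RPL39L at -0.56, and the number of members lower by at least 0.5 was 2 in place of 5. The share of all genes past 0.5 after this subtraction is not given.

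**Figure D3:**
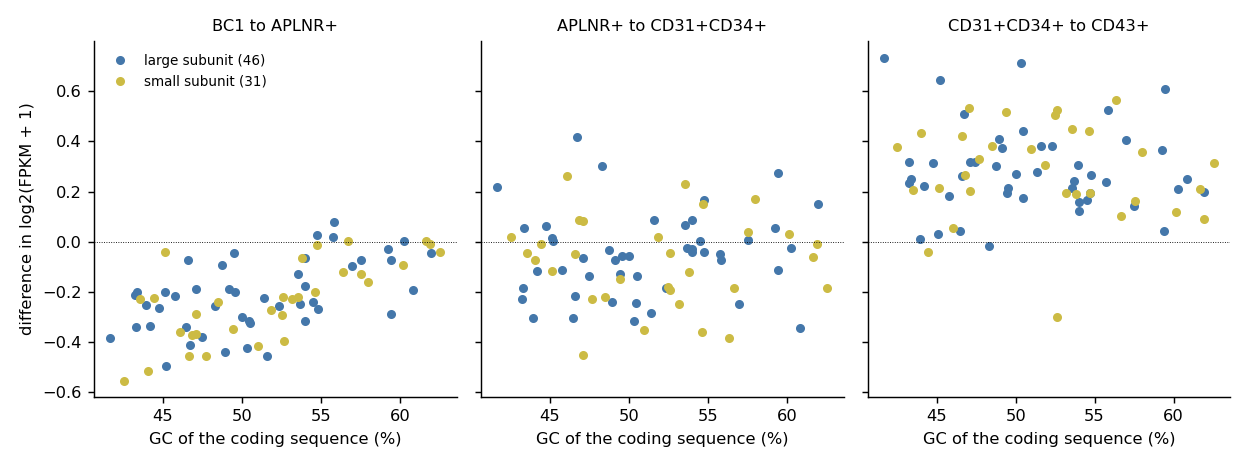
GC content of the coding sequence (%, x axis) and difference in log2(FPKM + 1) (y axis) of the 46 large and 31 small subunit core members at the 3 transitions, 1 library per population. Points climb from lower left to upper right in the first panel (rank correlation 0.59) and show little slope in the others (0.06 and -0.10).

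From APLNR+ to CD31+CD34+ the members as a group were almost level. Their median change was -0.06 against 0.01 over all genes, with 54 of the 82 lower. The medians of both subunits were -0.06. By at least 0.5, 1 member was higher and 2 were lower, while 27.0% and 24.3% of all genes tested were past it in these directions. All 3 were paralogs: RPS27L was higher and RPL22L1 and RPL7L1 were lower. Past 1 were RPS27L, beside 13.0% of all genes higher, and RPL22L1, beside 11.4% lower.

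Among core members, RPS6, the protein of the small subunit that S6 kinases phosphorylate, had 1206 FPKM in APLNR+ and 883 in CD31+CD34+ (-0.45). RPS14, whose loss underlies the anaemia of the deletion 5q form of myelodysplasia, had 896 and 686 (-0.38). In the other direction RPL36A had 1269 and 1694 (0.42), RPL24 1221 and 1505 (0.30) and RPL28 1219 and 1474 (0.27).

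From CD31+CD34+ to CD43+ nearly all members were higher. Their median change was 0.26 while that of all genes was -0.08, and 76 of the 82 were higher in CD43+. Large and small subunit members had medians of 0.25 and 0.29, and the interquartile range was 0.20, against 0.86 over all genes. By at least 0.5, 12 members were higher and 1 was lower, while 17.4% and 27.3% of all genes tested were past it in these directions. Past 1, 1 was higher (RPL22L1) and 1 lower (RPL39L), beside 7.63% and 13.5%. The split at 0.5 was 4 to 1 with libraries scaled to the same total and 27 to 1 with the median ratio over genes, and the median of the members was 0.14 and 0.41. All genes moved along: their median was -0.17 and 0.00 under these scalings, with 14.5% and 21.9% higher and 31.2% and 23.0% lower by at least 0.5.

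Those that were higher by at least 0.5 were RPL22L1 and 11 core members. RPL39, a small protein that lines the tunnel through which the new chain leaves the ribosome, had 1378 FPKM in CD31+CD34+ and 2294 in CD43+ (0.73). RPL37 had 556 and 911 (0.71) and RPL34 had 1323 and 2069 (0.64). The other 8 were RPL36, RPS14, RPS6, RPL29, RPS29, RPS27, RPL36A and RPS18, between 0.50 and 0.61.

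Of the 6 members that were lower, RPL39L was by far the lowest. The next was RPSA, a small subunit protein also known as the laminin receptor precursor. RPSA (chr3:39406689-39412542, plus strand) had 1421 FPKM in BC1, 1219 in APLNR+ cells, 1067 in CD31+CD34+ cells and 866 in CD43+ cells. Its level was thus lower at every transition, and the level in CD43+ was 1.64-fold lower than in BC1 (exact Clopper-Pearson 95% interval 1.61 to 1.67, for counting error only). Loss of one copy of RPSA is known to cause absence of the spleen.

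Over the whole course the members returned close to where they began. From BC1 to CD43+ their median change was -0.02, beside -0.06 over all genes, and 39 were higher and 43 lower. With libraries scaled to the same total it was -0.094, beside -0.12 over all genes, and with the median ratio 0.062, beside 0.00. By at least 0.5, 3 members were higher and 4 were lower, while 27.0% and 32.5% of all genes tested were past it in these directions. Past 1 there were 0 higher and 1 lower, beside 15.2% and 18.9%. The split at 0.5 was 1 to 4 with the same total, where 25.3% of all genes were higher and 34.3% lower, and 4 to 3 with the median ratio, where 29.2% and 30.3% were.

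The 3 that ended higher were RPL39 (0.57), RPL29 (0.53) and RPL36A (0.52). The transcripts used for them were short, with 401, 551 and 429 bases. The fitted length taken off a transcript was 250 bases in BC1 and 280 in CD43+. For the same number of fragments at the same depth, this gives a short transcript a higher FPKM in CD43+. Other short ones had changes of 0.46 (RPS21, 344 bases), 0.02 (RPS27, 359 bases) and -0.60 (RPL38, 431 bases). What part the length taken off had in the 3 changes was not tested. The 4 that ended lower were RPL39L, RPSA (-0.71), RPL38 (-0.60) and RPL22 (-0.55). RPL38, a large subunit protein needed for the translation of Hox mRNAs in the mouse embryo and chosen here after its values were seen, had 1219, 964, 780 and 804 FPKM in the order of the course. RPL36A had 1687, 1269, 1694 and 2415. RPL39 had 1543, 1184, 1378 and 2294, so that it was lowest in APLNR+ and highest in CD43+.

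Mitochondrially encoded genes, whose RNA also varied between libraries, took 7.71%, 5.82%, 5.80% and 8.16% of FPKM in the order of the course, high and low in the same libraries as the ribosomal protein genes. With each library scaled to the total of all other nuclear genes, the medians of the members were -0.29, -0.04 and 0.23 at the 3 transitions, of the same sign as before.

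Of the paralogs, RPL39L, RPL22L1 and RPS27L spanned a wider range than any core member. RPL39L (chr3:187120948-187180908, minus strand) is a copy of RPL39 known from the ribosomes of male germ cells. It had 57.7 FPKM in BC1, 35.7 in APLNR+ cells, 33.0 in CD31+CD34+ cells and 2.84 in CD43+ cells. The first 3 libraries were within a factor of 2 of each other, and the hematopoietic one stood far below them. From CD31+CD34+ to CD43+ it was 11.6-fold lower (95% interval 7.45 to 18.3) and from BC1 to CD43+ 20.3-fold lower (13.1 to 31.8), from about 287, 451 and 23 fragments in CD31+CD34+, BC1 and CD43+. RPL39 (chrX:119786504-119791643, minus strand) was highest in CD43+, so that RPL39L stood at 3.74%, 3.01%, 2.40% and 0.124% of its parent.

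The coding sequences of this pair are shown because reads could be taken for either gene. In GENCODE 29 both have 156 bases and differ at 8 of them, in capitals, with an identical stretch of up to 44 bases.
RPL39: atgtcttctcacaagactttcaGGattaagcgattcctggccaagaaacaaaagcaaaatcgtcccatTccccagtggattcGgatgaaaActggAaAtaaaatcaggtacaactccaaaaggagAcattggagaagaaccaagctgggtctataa
RPL39L: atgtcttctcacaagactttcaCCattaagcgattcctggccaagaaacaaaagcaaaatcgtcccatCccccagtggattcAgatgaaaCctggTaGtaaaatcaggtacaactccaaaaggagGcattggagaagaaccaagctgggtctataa

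How the authors' counting divided shared reads between them is not given in the sources used here. RPL39 was highest where RPL39L was lowest, and RPL39L stood at 0.124% of RPL39 there, beside 2.40% or more in the other 3 libraries. What part shared reads had in either level was not tested.

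**Figure D4:**
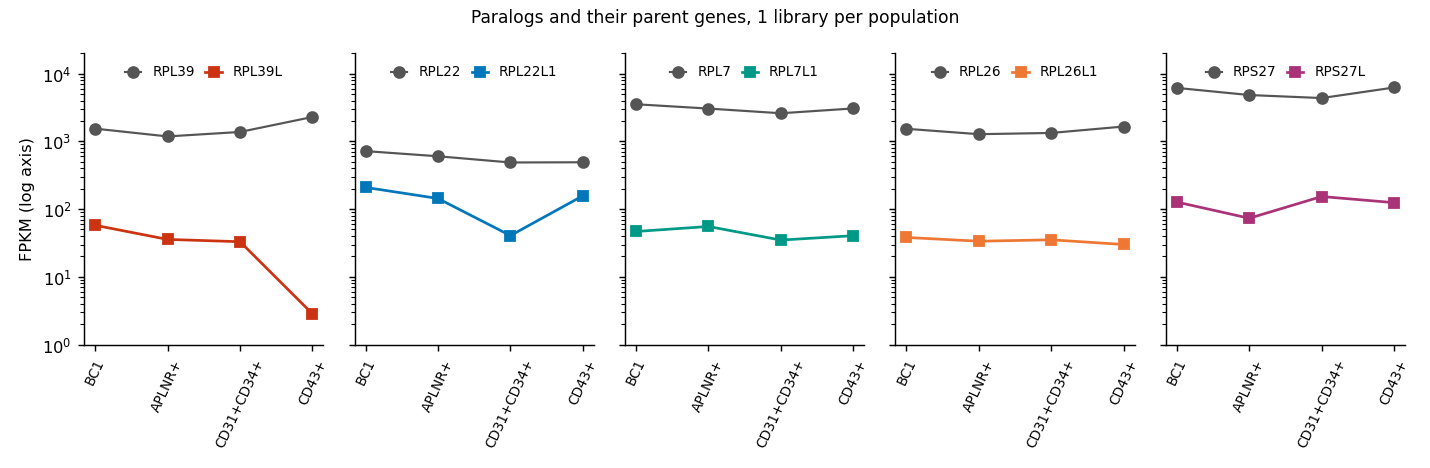
FPKM (log axis) of 5 paralogs (coloured squares) and of their parent genes (grey circles) in the 4 populations, 1 library each. RPL39L drops to 2.84 FPKM in CD43+ while RPL39 is at 2294, RPL22L1 is lowest in CD31+CD34+ at 40.7, and RPS27L is lowest in APLNR+ at 73.3.

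RPL22L1 (chr3:170864875-170870483, minus strand) can replace RPL22 in the large subunit, and in mice RPL22 holds its level down. RPL22L1 had 209 FPKM in BC1, 143 in APLNR+ cells, 40.7 in CD31+CD34+ cells and 158 in CD43+ cells, low in the endothelial population and high on both sides of it. It was 3.53-fold lower in CD31+CD34+ than in APLNR+ (95% interval 3.35 to 3.72) and 3.87-fold higher in CD43+ than in CD31+CD34+ (3.68 to 4.08). RPL22 (chr1:6181269-6209389, minus strand) had 719, 603, 488 and 492 FPKM in the same order, so that it was lower up to CD31+CD34+ and level after it. RPL22L1 was therefore at 29.2%, 23.8%, 8.33% and 32.0% of RPL22. Their coding sequences were 68.6% identical, with no identical stretch over 17 bases.

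RPS27L (chr15:63125872-63158021, minus strand) is a paralog of RPS27 and a target of the tumour suppressor p53. It had 127 FPKM in BC1, 73.3 in APLNR+ cells, 153 in CD31+CD34+ cells and 124 in CD43+ cells. Its level was lowest in the mesoderm library and was 2.09-fold higher in CD31+CD34+ (95% interval 2.04 to 2.14). The interval rests on about 9594 and 22003 fragments, for a transcript of 6434 bases. A shorter transcript would give fewer fragments and a wider interval. RPS27 was lower in CD31+CD34+ than in APLNR+, and RPS27L stood at 2.06%, 1.52%, 3.52% and 1.99% of it. Of 12 other genes of the p53 pathway, 9 were higher by at least 0.5 in CD31+CD34+ than in APLNR+ and 0 were lower, with a median of 1.14, beside 27.0% and 24.3% of all genes past it. Among them CDKN1A, the cell cycle inhibitor, had 23.7 and 228 FPKM, TP53INP1 3.41 and 24.4, and BBC3, which promotes apoptosis, 16.8 and 54.8.

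The remaining paralogs were low. RPL7L1, which takes part in the assembly of the large subunit, had 46.7, 55.4, 34.9 and 40.5 FPKM, between 1.32% and 1.81% of RPL7. RPL26L1 had 38.2, 33.6, 35.2 and 30.0, between 1.81% and 2.64% of RPL26, and its intervals at the 3 consecutive transitions all included no change. RPL3L, the form of RPL3 in heart and skeletal muscle, had 0.264, 0.388, 0.223 and 0.0488 FPKM, which stood for about 10, 16, 10 and 2 fragments. RPL10L, a copy of RPL10 active in the testis, was listed at 0 throughout.

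Other members of a wide or a narrow range were chosen after their values were seen. RPL37 had 928 FPKM in BC1, 692 in APLNR+ cells, 556 in CD31+CD34+ cells and 911 in CD43+ cells, a range of 1.67-fold. RPS6 had 1472, 1206, 883 and 1280. Both were highest in BC1 and lowest in CD31+CD34+. The narrowest were RPS28 with 1288, 1281, 1274 and 1359 FPKM, RPS9 with a range of 1.11-fold, RPL13A with 1.11, RPLP0, the base of the stalk, with 1.12, and RPS16 and RPS3 with 1.14. Pseudogenes of RPS28, not added here, stood at 13.4%, 8.17%, 6.54% and 12.4% of it in the order of the course.

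Of the members, 19 are genes of Diamond-Blackfan anaemia. All 19 were lower in APLNR+ than in BC1, with a median of -0.32, and all 19 had a higher level in CD43+ than in CD31+CD34+, with a median of 0.33. Over all members, of which these are part, the medians were -0.23 and 0.26, and of all 17137 genes 8524 were lower at the first and 7292 higher at the last. RPS19, the gene most often mutated in the disease, had 2442, 2182, 2456 and 3148 FPKM, highest in CD43+. RPS7 had 691 in BC1 and 503 in APLNR+, and RPS10 had 1495 in APLNR+ cells, 1164 in CD31+CD34+ cells and 1580 in CD43+ cells. RPS29 had 2222 in CD31+CD34+ and 3196 in CD43+.

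Ribosomal proteins that the symbol rule leaves out had levels of the same order. FAU, which encodes a small subunit protein fused to a ubiquitin-like one, had 407, 351, 359 and 501 FPKM. RACK1, a signalling scaffold on the small subunit, had 1835, 1485, 1461 and 1677, and RPL36AL, a copy of RPL36A, had 277, 250, 201 and 309. All 3 had a higher level in CD43+ than in CD31+CD34+.

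Pseudogenes of ribosomal proteins, which can take reads from their parents, were examined for the same reason. The 964 pseudogene identifiers together had 1216 FPKM in BC1, 996 in APLNR+ cells, 554 in CD31+CD34+ cells and 727 in CD43+ cells, between 0.493% and 0.904% of the members' sum. They reached 1 FPKM in 107 cases and 10% of their parent in 2. RPS29P5 had 300.0 and 266 FPKM in BC1 and APLNR+ and was listed at 0 in both later libraries, and RPS28P7 had 172, 105, 83.4 and 169, from 6.54% to 13.4% of RPS28. The change of RPS29 from APLNR+ to CD31+CD34+ was -0.05 alone and -0.21 with its pseudogenes added.

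The factors that assemble ribosomes were lower at the second transition, where the ribosomal protein genes were almost level. From APLNR+ to CD31+CD34+, 129 identifiers of 128 ribosome biogenesis factors had a median change of -0.82, beside -0.06 for the ribosomal proteins. EMG1 was listed under 2 identifiers, both lower past 1, and PWP2 was left out with under 1 FPKM. By at least 0.5, 98 of them were lower and 0 were higher, beside 24.3% and 27.0% of all genes, and by at least 1, 56 were lower, beside 11.4% of all genes tested. RRP9, a protein of the U3 particle that processes ribosomal RNA, had 41.3 FPKM in BC1, 105 in APLNR+ and 13.4 in CD31+CD34+. DHX37, a helicase of small subunit assembly, had 20.7 in APLNR+ and 3.50 in CD31+CD34+, and RRS1, a large subunit assembly factor, 35.1 and 7.12.

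At the first transition the same factors had a median of -0.12 and at the last 0.26, where 40 were higher and 2 lower by at least 0.5, beside 17.4% and 27.3% of all genes. PPAN, a nucleolar factor of large subunit maturation, had 19.6 FPKM in CD31+CD34+ and 69.9 in CD43+, and DKC1, the pseudouridine synthase mutated in dyskeratosis congenita, had 34.2 and 85.9. From BC1 to CD43+ their median was -0.71, with 84 lower and 2 higher by at least 0.5, beside 32.5% and 27.0% of all genes, whereas that of the ribosomal proteins was -0.02. CEBPZ, another assembly factor, had 38.1 FPKM in BC1 and 14.7 in APLNR+.

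The 15 genes of RNA polymerase I and its factors, which transcribe ribosomal RNA, had medians of -0.27, -0.34 and -0.01 at the 3 transitions and -0.66 over the whole course. At the first they went both ways: their mean was -0.07, and their median was -0.0028 with a filter of 10 FPKM. TAF1B and TAF1A, of the factor that selects the promoter, had 7.72 and 5.08 FPKM in BC1 and 15.8 and 10.5 in APLNR+. CD3EAP, a subunit of the polymerase, had 16.0 FPKM in APLNR+ and 1.27 in CD31+CD34+, and POLR1A, its largest subunit, 17.9 and 4.50. The 78 mitochondrial ribosomal proteins, which make up a separate ribosome, had medians of -0.15, -0.20 and 0.11, and the last was -0.00068 with libraries scaled to the same total.

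Translation factors and other mRNAs with a TOP tract, 31 in all, had medians of -0.29, 0.05 and 0.06. VIM, which encodes the intermediate filament vimentin, stood apart from the rest of this list with 46.6 FPKM in BC1, 417 in APLNR+ cells, 826 in CD31+CD34+ cells and 192 in CD43+ cells. EEF1B2, an exchange factor of elongation, had 174 in CD31+CD34+ and 311 in CD43+, and SNHG5, a host of small nucleolar RNAs, had 583 in APLNR+ and 299 in CD31+CD34+.

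**Figure D5:**
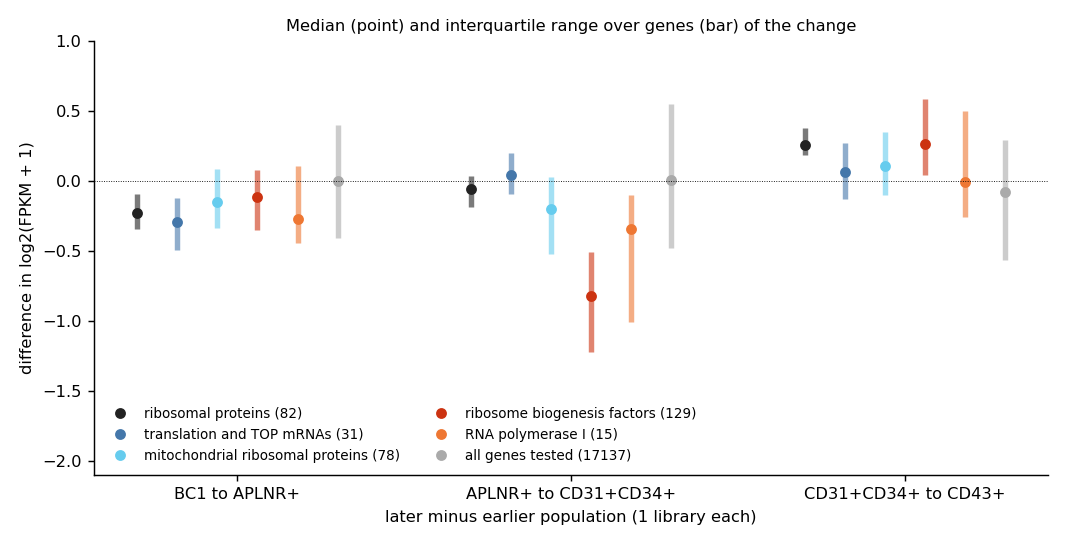
Median (point) and interquartile range over genes (bar) of the difference in log2(FPKM + 1) (y axis) for each gene list at the 3 transitions (x axis, 1 library per population), with the number of identifiers in brackets. Ribosome biogenesis factors have a median of -0.82 from APLNR+ to CD31+CD34+, where the ribosomal proteins have -0.06.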

How the data were processed

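The authors deposited 1 table of FPKM values per gene for 4 libraries, made with a TruSeq kit from Trizol-extracted RNA. The submitters' processing notes name BWA, Bowtie, RSEM and hg19 without roles, whereas the identifiers match GENCODE 29 for GRCh38 (58011 of 58274). Of the 84 members, 65 had the same version there, all 65 with the same coordinates, so loci are given as in the table, on GRCh38, counted from 1. The program, its version and the handling of strand and multiply mapped reads are not given in the sources used here. The study names 2 sequencing companies, and which made which library was not given, so this cannot be told apart from the populations.

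Rows of one identifier were summed (0 members were on more than 1 row). Changes are differences in log2(FPKM + 1), which understate folds of low genes. The genes counted against thresholds of 0.5 and 1 were those that reached 1 FPKM somewhere. With 1 library per population no p-value was computed. Depth was fitted from the whole-fragment steps of low values of genes with a single transcript of at least 1000 bases. Between 93.8% and 95.3% of values of at least 1 fragment came within 0.1 of a whole number, with 250 to 280 bases taken off each transcript, which weighs most on short ones such as those of RPS27 (359 bases) and RPL39 (401 bases). Intervals are exact Clopper-Pearson 95% intervals of approximate fragments, for counting error only. The number of fragments, and so the width of an interval, depends on the transcript length taken. The fit and the median change were tested on simulated data.

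Alternatives were other pseudocounts, filters, scalings, members, summaries and, added after seeing the data, subtraction of the median within 20 bins of coding GC. Named genes were every paralog and parent, the 5 highest and 5 lowest members, the 4 largest rises and falls at each of the 3 transitions among members with at least 10 FPKM, the 3 of the Diamond-Blackfan list furthest from the members' median, the 3 largest changes of other lists and 4 ribosomal proteins outside the rule, and others are named in the text as chosen later. Some genes that the rule names are not reported here. The gene group, defined by symbol, and the lists were taken up with earlier results of these data known. Python 3.11.15, pandas 2.3.3, numpy 2.4.6, scipy 1.17.1, biopython 1.88 and matplotlib 3.10.9 were used.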

Additional observations from a re-analysis of the deposited data

How the results depend on the processing

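Of 580 alternative values for 72 results, 501 stayed close, which was within the 95% interval of the median over genes, within 1.5 times for counts, within the counting interval for a single paralog and within 0.05 for RPS29. The other 79 moved and 0 reversed a direction past the threshold. Scaled to the same total, to the same total of other genes and by the median ratio, the change of the members from BC1 to CD43+ was -0.094, -0.095 and 0.062, for large subunit genes -0.094 and -0.095 in the first 2, and for small subunit genes -0.094, -0.096 and 0.061. From CD31+CD34+ to CD43+ the same total gave 0.14 for members, 0.13 for large, 0.17 for small, -0.00068 for mitochondrial ribosomal proteins and 0.15 for biogenesis factors. The median ratio gave 0.41, 0.40, 0.44, 0.25 and 0.40, and subtraction of coding GC bins gave 0.34, 0.34, 0.39, 0.22 and 0.35. GC bins also gave 0.077 for members, 0.089 for small subunit genes and -0.57 for biogenesis factors over the whole course. The first change was -0.29 for members and -0.29 for large subunit genes with the total of other genes. The second was -0.12 for members and -0.12 for large subunit genes with the median ratio. A pseudocount of 5 gave -0.68 and -0.59 for biogenesis factors at the second transition and over the whole course, and the mean of the translation list at the first was -0.18. RNA polymerase I at the last transition was -0.10 with the same total and 0.12 with the median ratio.

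Of the paralogs, the change of RPS27L over the whole course was -0.031 as deposited, 0.054 with the median ratio and 0.098 with GC bins, and at the last transition -0.15 with the median ratio. RPL7L1 over the whole course was -0.12 with the median ratio and -0.0076 with GC bins, and at the last transition 0.36 and 0.30. The changes of RPL22L1 and RPL39L past 0.5 moved by less than 1.5 times. RPS29 over the whole course was 0.080 alone and -0.056 with its pseudogenes added.

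From CD31+CD34+ to CD43+, 4 members were higher by 0.5 with the same total and 27 with the median ratio, beside 14.5% and 21.9% of all genes. With GC bins 19 were, and 1 was past a threshold of 1, beside 7.63% of all genes past 1. No share of all genes is given for GC bins or other pseudocounts. Over the whole course 1 was higher under each total, beside 25.3% and 25.4% of all genes. Past 1 there were 0 higher and 1 lower, beside 15.2% and 18.9%. From BC1 to APLNR+, 10 were lower with the total of other genes, beside 23.4% of all genes. With GC bins 2 were lower, without paralogs 2, beside 21.1% of all genes, and past 1 there were 0, beside 9.32%. Without paralogs 0 members were past 0.5 in either direction from APLNR+ to CD31+CD34+, beside 27.0% of all genes higher and 24.3% lower. At the last transition 0 were then lower, beside 27.3%. Past 1 from APLNR+ to CD31+CD34+, 1 member was lower, beside 11.4% of all genes. For biogenesis factors at the first transition, 4 were higher with the total of other genes, beside 19.1% of all genes. With a pseudocount of 5, 4 were higher and 9 were lower. Past 1 there were 1 higher and 2 lower, beside 9.15% and 9.32%. At the second, 56 were lower past 1, beside 11.4% of all genes. At the last, 6 were higher past 1, beside 7.63% of all genes. Lower were 1 with a pseudocount of 5, 1 with GC bins and 0 with the median ratio, beside 23% of all genes with that ratio. Past 1 there were 0 lower, beside 13.5%. Over the whole course 0 were higher and 31 lower past 1, beside 15.2% and 18.9% of all genes.

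No paired analysis was possible because each population had 1 library. Leaving out a library could not be done for the same reason. Differences of the size of most core members, under 1.5-fold, cannot be set against the spread between cultures, sorts or library preparations, which was not measured.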

Other observations

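TOR and MYC signalling act on ribosome production and on the translation of ribosomal protein mRNAs. Among 19 of their genes the median changes were 0.23, -0.32 and 0.22 at the 3 transitions, beside 0.00, 0.01 and -0.08 over all genes. The list mixes activating genes with opposing ones such as MXD3, so its median gives no direction of signalling. In the order BC1, APLNR+, CD31+CD34+ and CD43+, MYC had 52.9, 86.5, 57.9 and 141 FPKM, and MYCN had 60.0, 42.5, 17.5 and 108. Both were lower in CD31+CD34+ than in APLNR+ and highest in CD43+. MYCL, the other MYC gene of the list, went the other way with 16.8, 13.7, 29.3 and 13.2 FPKM. MAX, the partner of MYC proteins, had 46.9, 78.0, 74.9 and 295, and MXD3, which competes with them for MAX, had 12.5 in APLNR+ cells, 49.2 in CD31+CD34+ cells and 15.6 in CD43+ cells. EIF4G1, the scaffold of the cap-binding complex, had 234 in APLNR+ and 88.9 in CD31+CD34+. LARP1, which binds the TOP tract and was chosen, like MYCL, after its values were seen, had 122, 139, 114 and 133 FPKM.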
